A study of Mus musculus with 3 samples.

Results

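Among mouse protein-coding genes whose promoters are richest in CpG, 626 had no DNase I hypersensitive peak at any coding transcription start site (TSS) in biological replicates 1 and 3 of embryonic liver. They were chosen from 21851 protein-coding genes with a coding TSS in the GENCODE M21 annotation of mm10. The CG dinucleotides in the 1000 bp either side of each coding TSS were counted, and the highest count over the TSSs of a gene was kept. The CpG-rich set was everything at or above the 75th percentile, which began at 103 CG dinucleotides and held 5537 genes. Of these, 626 had no peak in any such window in replicates 1 and 3, which is 11.3% of the CpG-rich set and 2.86% of all genes. Over all genes, 41% lacked a peak in both libraries by the same rule. A promoter peak was present in 85.9% of the CpG-rich set in replicate 1 and 84.3% in replicate 3, and in 54% and 56.4% of all genes. The peaks of replicates 1 and 3 and the CG count therefore chose these genes and are given as descriptions. Replicate 2 was not used to choose them.

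The study measured DNase I cutting in embryonic mouse liver at 13.5 days. All 3 libraries came from strain C57BL/6N,129, described by the labels as wild type (WT) with A20 YAC, a yeast artificial chromosome, in 1 copy. The labels give 1 donor identifier and a separate biosample for each library, no sex, and no treated or control group. With 1 group there is no contrast, and genes are not replicates of a library, so no p-value is given and values are set side by side. In DNase-seq, nuclei are digested briefly with the enzyme, and stretches of DNA that are cut often are called as peaks. Each peak carries the signal that the authors' list gives it, on a scale set per library, so signals are compared only within a library.

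CpG islands are stretches in which CG dinucleotides have been kept at a density far above that of the rest of the genome. Most promoters of broadly used genes lie in them, and such promoters are usually unmethylated and open to DNase I in every tissue. Genes that control development in other tissues also often have CpG island promoters, which in cells that do not use them are known to be held by Polycomb proteins without DNA methylation. None of these marks was measured here.

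The upstream sequence of a few promoters shows the density of CG that went without a peak. The 250 bases before the TSS are given 5′ to 3′ on the strand of the gene, in lower case with each CG dinucleotide in capitals, from GRCm38 (mm10). The first 3 belong to the genes with the highest CG counts among those without a peak in any library. Genes whose 250 bases overlapped an annotated exon were passed over. Hoxd11 (chr2:74682073-74682322, plus strand) encodes a homeobox factor of the limbs and trunk and had 20 CG here. Barhl2 (chr5:106458167-106458416, minus strand) encodes a homeobox factor of neurons and had 36. Kcnc4 (chr3:107459553-107459802, minus strand) encodes a voltage-gated potassium channel and had 31.
Hoxd11: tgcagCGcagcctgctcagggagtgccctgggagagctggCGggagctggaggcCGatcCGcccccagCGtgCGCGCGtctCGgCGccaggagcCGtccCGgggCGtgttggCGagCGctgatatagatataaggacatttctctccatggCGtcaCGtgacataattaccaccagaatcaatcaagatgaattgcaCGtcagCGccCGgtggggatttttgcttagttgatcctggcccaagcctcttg
Barhl2: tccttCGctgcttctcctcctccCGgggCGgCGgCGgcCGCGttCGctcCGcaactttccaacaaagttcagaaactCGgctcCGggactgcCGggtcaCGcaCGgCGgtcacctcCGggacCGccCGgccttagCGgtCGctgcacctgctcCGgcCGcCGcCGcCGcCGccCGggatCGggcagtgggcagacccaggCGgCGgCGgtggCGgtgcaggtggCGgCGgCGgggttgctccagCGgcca
Kcnc4: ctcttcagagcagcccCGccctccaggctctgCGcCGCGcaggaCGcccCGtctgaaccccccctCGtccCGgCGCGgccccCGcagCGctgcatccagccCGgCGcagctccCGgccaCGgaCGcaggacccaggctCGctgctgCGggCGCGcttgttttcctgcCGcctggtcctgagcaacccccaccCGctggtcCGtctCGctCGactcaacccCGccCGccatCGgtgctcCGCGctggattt

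The next 2 belong to the genes lacking peaks in replicates 1 and 3 that had the highest signal in replicate 2. Cbarp (chr10:80139366-80139615, minus strand), whose product binds subunits of calcium channels, had 18 CG and a signal of 2.44. March9 (chr10:127060185-127060434, minus strand), which encodes a membrane-bound ubiquitin ligase, had 29 CG and a signal of 1.68. Both hold the letters CCGGAAG, read by ETS factors, on the strand shown. None of the other sequences given here holds them, including those of promoters with a peak in every library.
Cbarp: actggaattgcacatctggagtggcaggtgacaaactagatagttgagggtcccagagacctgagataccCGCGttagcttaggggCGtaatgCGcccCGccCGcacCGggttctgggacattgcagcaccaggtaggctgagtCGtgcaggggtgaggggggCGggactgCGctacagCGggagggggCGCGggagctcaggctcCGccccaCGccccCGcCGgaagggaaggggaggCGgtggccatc
March9: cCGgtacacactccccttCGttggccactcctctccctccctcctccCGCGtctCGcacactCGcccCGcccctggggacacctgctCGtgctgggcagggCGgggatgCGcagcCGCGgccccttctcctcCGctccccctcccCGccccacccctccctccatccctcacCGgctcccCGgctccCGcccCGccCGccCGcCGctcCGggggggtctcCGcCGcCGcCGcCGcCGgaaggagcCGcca

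For comparison, Mrps6 and Mrpl48 are genes of the CpG-rich set that encode proteins of the mitochondrial ribosome and had a peak in every library. Mrps6 (chr16:92058020-92058269, plus strand) had 29 CG and signals of 2.50, 5.77 and 1.27 in replicates 1, 2 and 3. Mrpl48 (chr7:100608302-100608551, minus strand) had 21 CG and signals of 4.49, 16.0 and 14.6. The number of CG in these 250 bases overlapped between promoters with and without peaks.
Mrps6: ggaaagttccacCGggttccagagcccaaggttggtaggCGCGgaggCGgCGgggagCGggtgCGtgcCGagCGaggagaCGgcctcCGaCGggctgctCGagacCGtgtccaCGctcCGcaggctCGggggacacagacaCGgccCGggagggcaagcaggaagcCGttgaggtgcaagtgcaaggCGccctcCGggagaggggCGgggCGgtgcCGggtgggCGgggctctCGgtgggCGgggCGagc
Mrpl48: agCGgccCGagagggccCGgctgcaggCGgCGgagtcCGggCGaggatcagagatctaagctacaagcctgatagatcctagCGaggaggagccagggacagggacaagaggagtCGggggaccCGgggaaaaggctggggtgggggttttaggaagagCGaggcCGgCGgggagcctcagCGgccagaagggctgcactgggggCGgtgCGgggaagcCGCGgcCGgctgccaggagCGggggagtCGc

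Replicate 2 had the longest list, 122281 peaks against 34369 in replicate 1 and 60862 in replicate 3. Marker genes of the labelled tissue were checked first. Of 10 erythroid markers, the main cell type of the liver at this age, 9, 10 and 10 were open at the promoter in replicates 1, 2 and 3. Of 8 hepatoblast markers, 4, 7 and 6 had one, and Alb, which encodes albumin, had none in any library. The neuronal list had 6, 7 and 5 of 8 and the skeletal muscle list 1, 6 and 2 of 8. Summed promoter signal in replicates 1, 2 and 3 was 17.9, 72.6 and 72.2 for the erythroid list and 7.55, 19.8 and 12.1 for the hepatoblast list. It was 7.24, 11.3 and 4.58 for the neuronal list and 1.07, 3.07 and 1.27 for the muscle list. A peak in bulk tissue does not tell a few fully open cells from many partly open ones. Of these markers, Dlk1, Rbfox3 and Des belong to the CpG-rich genes lacking peaks.

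Most of the genes lacking peaks in replicates 1 and 3 did have a peak in replicate 2, weak beside those of other CpG-rich promoters. There, 488 of the 626 genes (78.0%) had a promoter peak, against 4904 of the other 4911 CpG-rich genes (99.9%). The share was 97.4% over the CpG-rich set and 67.3% over all genes. The remaining 138 genes (22.0%) had no promoter peak in any library. Among the 488 genes with one, the highest signal in the windows had a median of 0.441 and ran from 0.129 to 2.44. The median over all 122281 replicate 2 peaks, at promoters or elsewhere, was 0.386, a value per peak rather than the highest per gene. The 4904 other CpG-rich genes with a peak had a median of 8.495. Only 11 of the 626 genes (1.76%) had a signal above 1, against 4371 of the other genes (89.0%) and 49.9% of all genes. By rank among all genes in replicate 2, the 488 genes stood between percentiles 32.9 and 57.5 with a median of 41.0. The other CpG-rich genes had a median percentile of 76.0. Genes without a replicate 2 peak, 32.7% of all genes, fill the ranks below. The 488 genes thus began near the lowest rank of any gene with a promoter peak. The difference in the number of peaks moves with the share that had a replicate 2 peak. With the strongest 34369 peaks of replicate 2 alone, 42 of the 626 genes (6.71%) had a peak, against 4548 of the other genes (92.6%). In the shorter of the 2 peak lists of replicate 2, the counts were 237 (37.9%) and 4844 (98.6%).

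**Figure D1:**
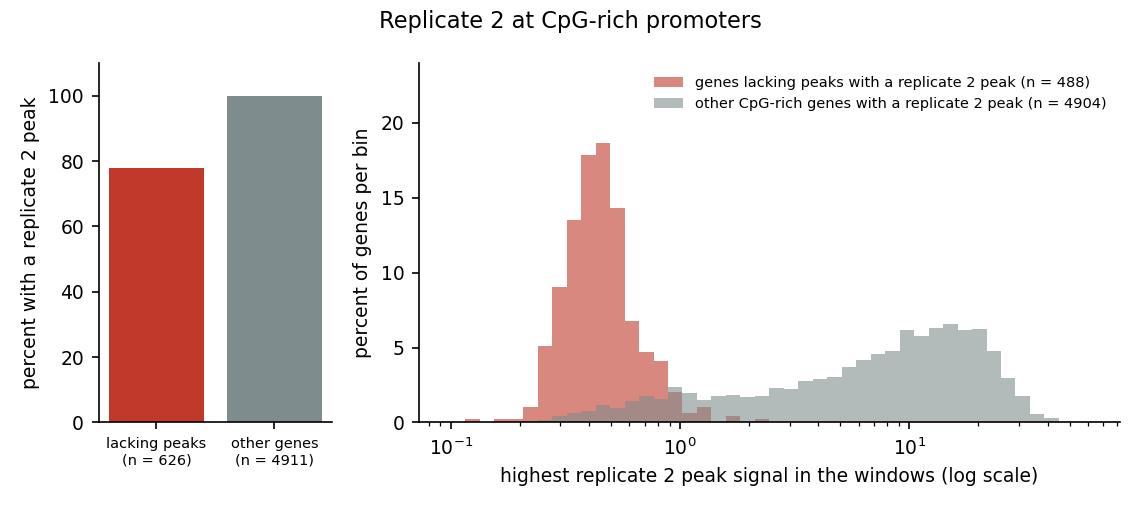
Left, percent of genes with a promoter peak in replicate 2, for genes lacking peaks in replicates 1 and 3 (78.0%) and the other CpG-rich genes (99.9%). Right, the highest replicate 2 peak signal in the windows of the genes with a peak, on a log scale, as percent of genes per bin. The 2 distributions overlap between 0.215 and 2.44, and 89.0% of the other genes lie above 1.

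CpG-rich genes with a peak in 1 of the 2 choosing libraries lay between the other groups. There were 398, of which 242 had the peak in replicate 1 alone and 156 in replicate 3 alone, and their median replicate 2 signal was 0.608. The 4513 genes with a peak in both had a median of 9.40. At the edge of the window, the nearest peak of replicate 1 or 3 lay 1001 bp from the TSS of Fgf18, 1010 bp from that of Mpp3 and 1022 bp from that of Pth1r, which were kept as lacking peaks. Fgf18 encodes a growth factor of bone and lung, Mpp3 a membrane scaffold protein and Pth1r the parathyroid hormone receptor. Just on the other side, Zfp423 had its nearest such peak, in 1 of the 2 libraries, at 988 bp, Tmem121b at 959 bp and Cacna1a at 948 bp. At the CG threshold, 14 genes with 103 CG lacked peaks (10.6% of genes with that count), and with 102 CG, just outside the set, 19 did (13.2%). Clmn, which encodes an actin-binding protein, Colec12, a scavenger receptor, and Dbndd1, of the dysbindin family, had 103 CG. Their replicate 2 signals were 0.392, 0.420 and 0.493. Over the 626 genes the nearest peak lay at a median of 23481 bp in replicate 1 and 15312 bp in replicate 3. In these 2 libraries the rule itself required a distance over 1000 bp. In replicate 2, which the rule did not use, the median was 62.5 bp.

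Below the level of called peaks, the authors list positions that pass a false discovery rate of 0.05. In replicate 2 they covered a median of 402.5 bp of the window in the genes lacking peaks, against 1539 bp in the other CpG-rich genes and 768 bp over all genes. Footprints, short protected stretches within open DNA, numbered a median of 4 against 15 per window in replicate 2, with 6 over all genes. At least 1 footprint was present in 467 of the 626 genes (74.6%), against 4899 of the other CpG-rich genes (99.8%) and 65.9% of all genes. In replicate 1, 73 of the 626 genes (11.7%) had any position at the 0.05 rate, and no gene had more than 91 bp. The share was 97.4% of the other CpG-rich genes and 55.2% of all genes. In replicate 3, 26 of the 626 genes (4.15%) had one, and no gene had more than 132 bp. The share was 95.5% of the other CpG-rich genes and 57.4% of all genes. Peaks of these 2 libraries chose the genes, so their low shares there are tied to the rule. Among the 138 genes without a peak in any library, 23 (16.7%) had such positions in replicate 2. The most was in Nr2f2, which encodes an orphan nuclear receptor of venous vessels, with 237 bp in replicate 2, 132 bp in replicate 3 and 0 bp in replicate 1. Called peaks lay just outside its windows, 1048 bp from the nearest TSS in replicate 2 and 1068 bp in replicate 3.

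Where a replicate 2 peak was found, it was less closely tied to the TSS in the genes lacking peaks. The centre of the strongest peak lay within 250 bp of the nearest coding TSS in 245 of 488 genes (50.2%), against 3974 of 4904 other CpG-rich genes (81.0%). It lay downstream of the TSS, inside the gene, in 59.6% against 26.5%. It lay over 500 bp downstream in 18.4% against 3.49%, and over 500 bp upstream in 7.17% against 4.73%. The median position was 66.5 bp downstream in the genes lacking peaks and -52.5 bp, that is upstream, in the other genes. Genes with a peak in 1 of the 2 choosing libraries lay between and shared part of the shift. Of their 391 with a replicate 2 peak, 249 had it within 250 bp and 209 downstream, with a median of 9.5 bp. Of all 14711 genes with a replicate 2 peak, 11927 had it within 250 bp and 5455 downstream, with a median of -24.5 bp. Genes with several coding TSSs have more chances of a near one, so the comparison was repeated in genes with 1 coding TSS. There the share within 250 bp was 41.8% of 249 genes against 79.0% of 1961 genes, and the medians were 135.5 bp downstream and -53.5 bp. Peak strength moves with this placement, and its part was not tested.

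**Figure D2:**
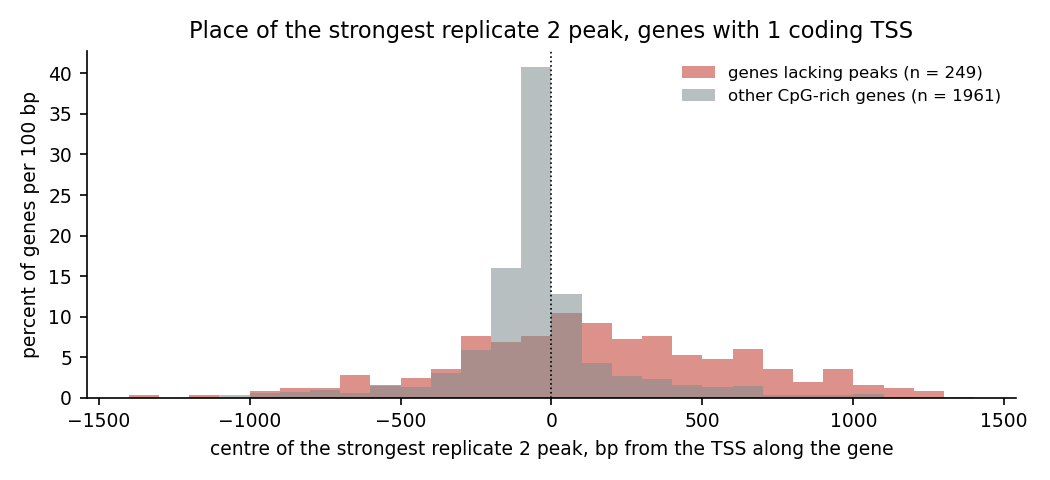
Position of the centre of the strongest replicate 2 peak relative to the TSS (bp along the gene, negative values upstream) in genes with 1 coding TSS, as percent of genes per 100 bp. Peaks of the other CpG-rich genes pile up just upstream of the TSS, with a median of -53.5 bp, and those of genes lacking peaks spread into the gene, with a median of 135.5 bp.

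Genes lacking peaks held many regulators and membrane proteins, and the tissues that use them were not measured. On 7 lists by gene symbol (homeobox factors, other developmental transcription factors, secreted signals, ion channels, transmitter and peptide receptors, cadherins, and synapse and axon guidance proteins), the CpG-rich set had 504 genes and 244 of them (48.4%) lacked peaks. These 7 lists held 39.0% of the genes lacking peaks, 5.29% of the other CpG-rich genes and 5.92% of all genes. Of the 4707 CpG-rich genes on no list, 354 (7.52%) lacked peaks. Of 56 genes for ribosome, proteasome and respiratory chain proteins, 0 lacked peaks, and their median replicate 2 signal was 11.2. The lists were written with earlier results of these data known, so the counts describe and do not support.

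**Figure D3:**
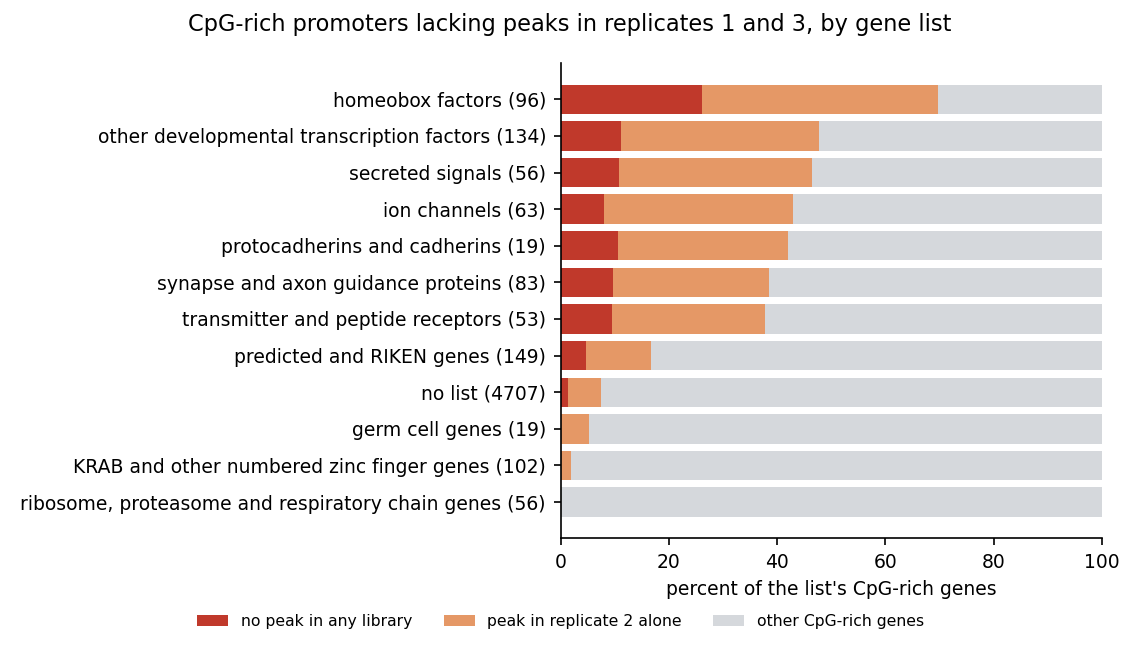
CpG-rich genes by gene list (number of genes in brackets), as percent without a peak in any library, with a peak in replicate 2 alone, and the other CpG-rich genes. Homeobox factors stand at the top with 69.8% lacking peaks in replicates 1 and 3, and genes for ribosome, proteasome and respiratory chain proteins at the bottom with 0%.

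Homeobox factors, DNA-binding proteins that lay down body pattern, had the highest share. Of 96 in the CpG-rich set, 67 (69.8%) lacked peaks, and 42 of these had a replicate 2 peak with a median signal of 0.431. The 29 homeobox genes outside the group had a median replicate 2 signal of 0.967. Hoxd8 (window chr2:74703905-74705905), a factor of the trunk, had 211 CG, the most of any gene without a peak in any library, and its nearest peak lay 10709 bp away in all 3 libraries. Hoxd11 had 190 CG, with the nearest peak at 33538 bp in replicate 1 and 26630 bp in replicate 2. Barhl2 had 188 CG and 4 bp of positions at the 0.05 rate in replicate 2. Gbx1, a factor of the nervous system, had 181 CG and its nearest peak at 2919 bp in replicates 1 and 2. Hoxa13, a factor of limb tips and hindgut, had 198 CG and a replicate 2 signal of 0.465, centred 737 bp downstream of the nearest TSS. Among the 67, the highest replicate 2 signals were 0.983 at Shox2, a factor of limb and heart, and 0.896 at Pou6f1, which were singled out after their values were seen.

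Hox genes in the CpG-rich set numbered 15, and 12 of them lacked peaks. On chromosome 2, Hoxd13, Hoxd11, Hoxd9 and Hoxd8 formed a stretch from 74668310 to 74704905 in which none had a peak in any library. On chromosome 6, Hoxa7, Hoxa9 and Hoxa13 had replicate 2 signals of 0.535, 0.559 and 0.465, and Hoxa11 had no peak. The 3 other CpG-rich Hox genes, Hoxa4, Hoxa5 and Hoxa10, lie in the same cluster and had peaks in all 3 libraries. Hoxa10 had signals of 1.61, 0.945 and 0.498 in replicates 1, 2 and 3, Hoxa5 1.09, 0.948 and 0.595, and Hoxa4 0.829, 0.934 and 0.526. In replicate 2, all 3 stood above the Hoxa genes that lacked peaks. The Hoxd and Hoxa stretches differed in the number of replicate 2 peaks away from promoters within 50 kb, with 2 at Hoxd11 and 32 at Hoxa11.

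Other developmental transcription factors followed. Of 134 in the set, 64 (47.8%) lacked peaks, and 49 of the 64 had a replicate 2 peak with a median signal of 0.427. Foxf1, a forkhead factor of gut and lung mesenchyme, had 206 CG and a replicate 2 signal of 0.816 centred -497.5 bp from the TSS. Sox3, a factor of neural progenitors, had 189 CG and a signal of 0.274 centred 909.5 bp downstream, and its nearest replicate 1 peak was 345250 bp away. Gata2, a zinc finger factor of blood stem cells and progenitors, had the highest signal of the 64, at 1.19, centred 346.5 bp downstream. Nr2f2 had 180 CG and no peak inside its windows. Of the Sox family, 6 of 14 lacked peaks, and all 6 (Sox1, Sox3, Sox7, Sox9, Sox14 and Sox18) had a replicate 2 peak. Of the forkhead family, 13 of 33 lacked peaks and 11 of the 13 had a replicate 2 peak. Over all 626 genes the share with a replicate 2 peak was 78.0%. The hepatic forkhead genes were divided. Foxa2 lacked peaks and had a replicate 2 signal of 0.556, Foxa1 had 0, 0.688 and 0.457 in replicates 1, 2 and 3, and Foxa3 had 4.23, 13.6 and 8.09. Of T-box genes, 6 of 7 lacked peaks, among them Eomes (0.521 in replicate 2), T (0.313) and Tbx21 (no peak). The families, other than single genes named by rule, were chosen with these values in view.

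Secreted signals, which carry patterning information between cells, had 26 of 56 genes (46.4%) lacking peaks, of which 20 had a replicate 2 peak with a median signal of 0.451. Wnt4, a signal in kidney and ovary formation, had 197 CG and a signal of 0.528. Nog, which encodes the BMP antagonist noggin, had 183 CG and a signal of 0.458, and its nearest replicate 1 peak lay 1209 bp from the TSS. At Nog, positions at the 0.05 rate covered 1718 bp of the window in replicate 2 and 0 bp in replicates 1 and 3. Wnt genes had 7 of 11 lacking peaks and Fgf genes 6 of 11. All 6 Fgf genes (Fgf3, Fgf4, Fgf5, Fgf8, Fgf16 and Fgf18) had a replicate 2 peak, as did 5 of the 7 Wnt genes. The share was 78.0% over the 626 genes, and these families are small.

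Ion channels had 27 of 63 genes (42.9%) lacking peaks, and 22 of the 27 had a replicate 2 peak with a median signal of 0.392. Hcn4, the pacemaker channel of the heart, had 207 CG and a signal of 0.597 centred -781.5 bp from the TSS. Kcnc4 had 187 CG, no peak in its windows and no position at the 0.05 rate, with the nearest peak at 2749 bp in replicate 1. Of potassium channel genes, 17 of 35 lacked peaks. Transmitter and peptide receptors had 20 of 53 (37.7%), with a median of 0.399 in the 15 with a replicate 2 peak. Grid1, a glutamate receptor of the delta type, had 197 CG and 0.406, and Grik3, a kainate receptor, 192 CG and 0.309.

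Cadherin and synapse genes had shares close to those of channels and receptors. Of 19 CpG-rich cadherin genes, 8 (42.1%) lacked peaks, among them Celsr1, an atypical cadherin of planar polarity, with 199 CG and 0.712 in replicate 2. Clstn1, a synaptic member of the cadherin family, had 181 CG and no peak in any library. Of 83 synapse and axon guidance genes, 32 (38.6%) lacked peaks. Rims2, a scaffold of the presynaptic active zone, had 242 CG and a signal of 0.476. Efna5, a membrane-bound guidance ligand, had 188 CG and 0.580, with 1917 bp of its window at the 0.05 rate in replicate 2, 10 bp in replicate 1 and 0 bp in replicate 3.

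The lists of other kinds differed among themselves. Among 102 numbered zinc finger genes of the set, 2 (1.96%) lacked peaks, Zbtb42 at 0.792 and Zfp618 at 0.333 in replicate 2. Of 19 germ cell genes only Tdrd6, which encodes a protein of spermatid granules, did, with a signal of 0.479. Predicted and RIKEN genes had 25 of 149 (16.8%), led in CG by Gm43517, with 168 CG and a signal of 0.330. The 354 genes on no list included 289 (81.6%) with a replicate 2 peak. They held Nfix, a nuclear factor I protein, whose 251 CG were the most of all 626 genes and whose signal was 0.941. They also held Jag2, a Notch ligand, with 223 CG and 0.785, and Pdgfa, a growth factor, with 212 CG and 0.868. These 3 were picked after their values were seen. Jph3, which ties neuronal membranes to the endoplasmic reticulum, Doc2b, a calcium sensor of secretion, and Nptxr, a neuronal pentraxin receptor, had 184, 178 and 178 CG and no peak in any library.

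The strongest replicate 2 signals among genes lacking peaks belonged to a mixed set, mostly outside the lists. After Cbarp and March9 came B4galt2, a galactosyltransferase, at 1.66 and Ahnak, a giant scaffold protein, at 1.35. The gene 2210011C24Rik had 1.20, Ankrd13b, an ankyrin repeat protein, 1.18 and Epb41l1, a protein of the neuronal membrane skeleton, 1.15. C2, a complement component made by liver and macrophages, had 1.07, and its windows overlapped those of Gm20547 and Zbtb12. Ptk7, a receptor of planar polarity, had 0.986. Even Cbarp stood at only the 57.5th percentile of all genes in replicate 2, and its nearest replicate 1 peak lay 1976 bp from the TSS. Trim7 and Gm12184, left out of this ranking because over 10% of their windows is copied elsewhere, each had 1.36 from overlapping windows.

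Of the markers used to check the tissue, Dlk1, a surface protein of hepatoblasts, lacked peaks in replicates 1 and 3 and had a replicate 2 signal of 0.618. Rbfox3, a neuronal splicing factor, had 0.445, and Des, which encodes the muscle filament desmin, 0.410.

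The share lacking peaks moved little with the CG count itself. It was 10.1% of genes from 103 to under 120 CG, 14.6% from 120, 12.5% from 130, 10.8% from 150 and 8.88% from 180 CG upwards. It was lower at higher ratios of observed to expected CG, which corrects the count for base composition. Of genes with a ratio under 0.6, 54 of 158 (34.2%) lacked peaks. The share was 17.5% from 0.6, 11.4% from 0.7 and 5.89% from 0.8, and from 0.9 upwards it was 16 of 585 (2.74%). By G+C content the share was 2.34% under 55%, 7.55% from 55%, 17.4% from 60% and 17.9% from 65%, and 8.70% (10 of 115 genes) from 70%. Their median CG count was 129 against 130 in the other CpG-rich genes, their median G+C content 61.7% against 59.3%, and their median observed-to-expected ratio 0.706 against 0.768. Within each of the 5 bands of CG count, G+C was higher and the ratio lower in the genes lacking peaks. From 103 to under 120 CG, for example, they were 59.5% against 56.3% and 0.632 against 0.6996. At a given CG count the ratio falls as G+C rises, so these are not 2 separate differences.

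**Figure D4:**
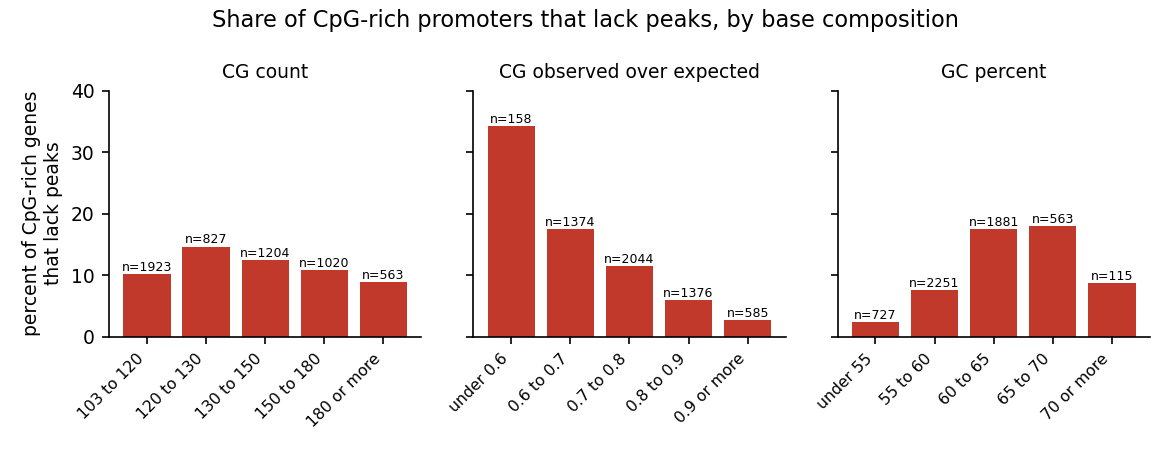
Percent of CpG-rich genes that lack peaks in replicates 1 and 3, by CG count, by the ratio of observed to expected CG and by G+C percent of the window, with the number of genes above each bar. The share ran from 34.2% under a ratio of 0.6 to 2.74% from 0.9 upwards, and stayed between 8.88% and 14.6% over the bands of CG count.

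Base composition and gene class were then read together. In windows with a ratio under 0.7, 105 of 201 genes on the 7 lists (52.2%) lacked peaks, against 180 of 1245 genes on no list (14.5%). From 0.7 to 0.8 the counts were 100 of 182 (54.9%) and 120 of 1739 (6.90%). From 0.8 upwards they were 39 of 121 (32.2%) and 54 of 1723 (3.13%). The listed genes thus had the higher share in each of the 3 bands.

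Along the gene, the profile of CG dinucleotides differed between the groups. The mean number per 100 bp was highest just after the TSS in both groups, at 11.3 in the genes lacking peaks and 12.0 in the other CpG-rich genes. Centred 550 bp downstream it was 7.66 against 7.30. That excess came from the 488 genes with a replicate 2 peak, at 7.94, and the 138 genes without a peak in any library stood at 6.68. Centred 950 bp downstream it was 4.62 against 3.52, with 4.75 in the 488 genes and 4.18 in the 138. Centred 250 bp upstream it was 7.02 against 7.90. The rule fixes only the total over the window, and the shape along it was free. Genes lacking peaks had a single coding TSS more often, 51.9% against 40.03% of the other CpG-rich genes, where all genes stood at 48.7%, and the share lacking peaks was 14.2% of genes with 1 coding TSS and 5.61% of genes with 4 or more, each further TSS being a further chance of a peak.

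**Figure D5:**
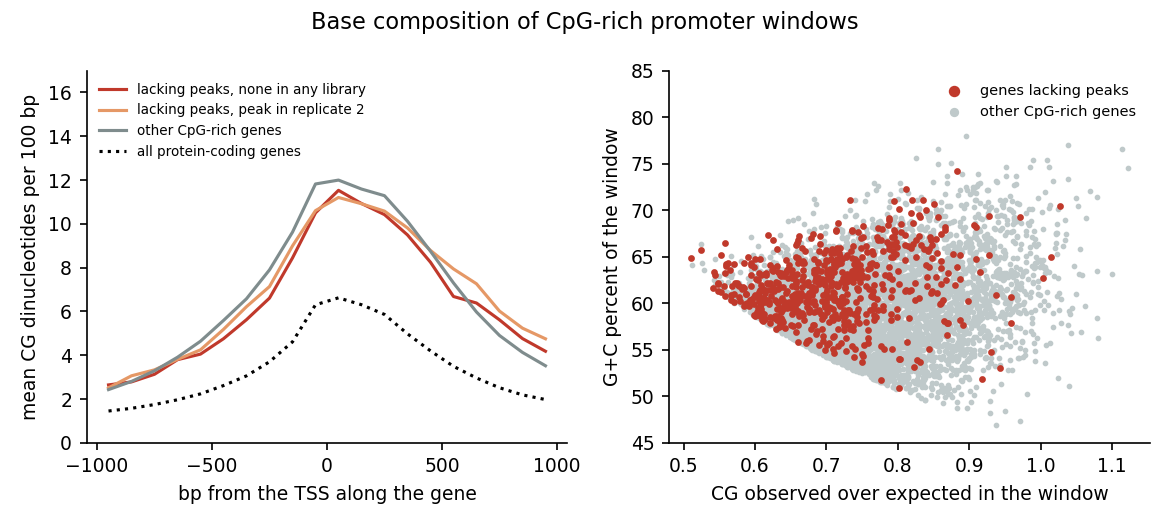
Left, mean CG dinucleotides per 100 bp by distance from the TSS along the gene, for genes without a peak in any library, genes with a peak in replicate 2 alone, the other CpG-rich genes and all protein-coding genes. Beyond 500 bp downstream the curve of genes with a replicate 2 peak lies above that of the other CpG-rich genes. Right, G+C percent against the ratio of observed to expected CG for each CpG-rich gene, with the lower edge set by the threshold of 103 CG.

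Short motifs were searched on both strands in the 250 bases before the TSS and the first 50 of the transcript, and a match is a description of letters, not of binding. GGGCGG, read by SP and KLF factors, was present in 73.8% of the genes lacking peaks, 81.7% of the other CpG-rich genes and 47.4% of all genes. CCAAT was present in 25.1%, 32.4% and 37.5%. CCGGAAG, read by ETS factors, was present in 23 of 626 genes lacking peaks (3.67%), 15.3% of the other CpG-rich genes and 11.6% of all genes. The ETS letters contain a CG, so they were also counted by band of the observed-to-expected ratio. The shares were 3.05% against 12.5% under 0.7, 5.56% against 17.6% from 0.7 to 0.8, and 1.03% against 15.0% from 0.8 upwards. TTCCCGCC (E2F) was found in 2.40%, 5.38% and 3.07%, and TGACGTCA (CRE) in 1.76%, 3.48% and 2.52%. TATAAA was found in 5.27%, 4.19% and 12.3%, and the GATA letters AGATAA in 3.99%, 2.20% and 9.36%. CACGTG (E-box) stood at 8.31%, 9.94% and 7.82%. None of the 8 motifs searched contains another. TATAAA and AGATAA were more frequent in the genes lacking peaks than in the other CpG-rich genes, and the other 6 less frequent. Over all genes, TATAAA and AGATAA were more frequent than in either group. The E-box letters also contain a CG, and their difference was not the same in every band. It was 6.78% against 10.3% under 0.7 and 8.97% against 9.39% from 0.7 to 0.8. From 0.8 upwards it reversed, at 11.3% (11 of 97 genes) against 10.2%. The CRE letters stayed less frequent there, at 3.09% against 3.59%.

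Genes lacking peaks in replicates 1 and 3 often stood alone on the chromosome. Only those with a replicate 2 peak did so more often than the other CpG-rich genes. No other coding gene had a TSS within 50 kb of 317 of the 626 (50.6%). The share was 36.1% of the other CpG-rich genes and 26.9% of all genes. It was 268 of the 488 genes with a replicate 2 peak (54.9%). Of the 138 genes without a peak in any library it was 49 (35.5%), near the other CpG-rich genes and above all genes. Windows of the 626 genes overlapped the window of another coding gene in 23 cases (3.67%), against 22.2% of the other CpG-rich genes and 13.4% of all. Peaks away from promoters within 50 kb numbered a median of 1, 4 and 2 in replicates 1, 2 and 3, against 1, 5 and 3 for the other genes. The median over all genes was 1, 4 and 2. In replicate 1, 37.4% of the genes lacking peaks had none, against 34.8% of the other CpG-rich genes and 44.3% of all genes. The shares were 7.67%, 4.87% and 13.6% in replicate 2, and 24.1%, 10.8% and 25.7% in replicate 3. The genes lacking peaks were thus nearer to all genes than to the other CpG-rich genes in replicate 3. Genes without a peak in any library had a median of 6 such replicate 2 peaks, and those with a replicate 2 promoter peak had 4. In replicates 1 and 3 the medians were 1 and 2 in both groups. Other coding genes with a TSS within 50 kb numbered a median of 1 and 0 in these groups. The part of gene density in the counts of such peaks was not tested. When genes within 50 kb were joined, 58 of the 626 fell in 26 stretches of 2 or more, and the 3 longest, of 4 genes each, were the Hoxd and Hoxa stretches and a group of histone genes. By chromosome the share of CpG-rich genes that lacked peaks ran from 6.33% on chromosome 18 to 14.9% on chromosome 7, leaving aside chromosome Y with its 1 gene.

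Some windows lie in sequence that is copied elsewhere in the genome, where short reads cannot be placed with certainty. Taking a base as copied when the 36 bases from it recur elsewhere on either strand, 21 of the 626 genes (3.35%) had over 10% of the window copied, against 155 of the other CpG-rich genes (3.16%) and 17.4% of all genes. Above 90% there were 11 genes (1.76%), against 1 other CpG-rich gene (0.0204%) and 3.46% of all genes. Of those 11, the histone genes Hist1h2ao, Hist1h2ap, Hist1h2bq and Hist1h2br on chromosome 13 were copied over 100% of their windows and had no peak in any library. So were Gm47283 on chromosome Y, BC107364 on chromosome 3, and Gm16867 and Slc25a37 on chromosome 14. Slc25a37 encodes mitoferrin, which brings iron into mitochondria for haem synthesis in red cell precursors. Nudt10, Nudt11 and Zxdb on the X chromosome were copied over 93.3%, 92.1% and 98.2% of their windows, with replicate 2 signals of 0.129, 0.167 and 0.458. In these 11 genes a missing or weak peak and unplaced reads cannot be told apart, and the part of copying in the other genes was not tested. Among the 138 genes without a peak in any library, 13 (9.42%) had over 10% of the window copied, and among the 488 with a replicate 2 peak, 8 (1.64%).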

How the data were processed

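DNase-seq of mouse embryonic liver gave 3 libraries, all in 1 group. The authors called peaks on the filtered alignments (mm10) of each library alone, per the text listings deposited with the libraries. The peak caller is not given in the sources used here, nor is its release. Each library has 2 deposited peak lists, and the one with more peaks was used. The deposited lists give each peak a signal, scaled per library. The deposited positions carry a false discovery rate, that is a q-value, and list only values up to 0.05. The score deposited with the footprints is the constant 0.01 and was not used. Depth in reads is unknown, so no interval that needs it is given.

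The genes were compared by description alone, with no test. A promoter was the 1000 bp either side of a coding TSS of GENCODE M21, and 1 bp of overlap counted as a peak. The signal of a gene was the highest over its windows. For a gene with several TSSs, sequence measures come from the TSS with the most CG and the distance of a peak from the nearest TSS. Peaks away from promoters overlapped no such window. Sequence came from GRCm38, and copied bases were found by 36-base words, a step checked on simulated sequence. Scripts ran in Python 3.11.15 with numpy 2.4.6, pandas 2.3.3, numba 0.67.0 and matplotlib 3.10.9.

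Genes were named by a rule. It took the 10 genes without a peak in any library with the highest CG count, the 10 with the highest replicate 2 signal, and the 2 with the highest CG count on each list. It added the 3 nearest to the CG threshold, the 3 nearest to the window's edge and the 3 with the most copied sequence. Except for these last 3, genes with over 10% of the window copied were not ranked. The members and lists were chosen with earlier results of these data known.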

Additional observations from a re-analysis of the deposited data

How the results depend on the processing

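No paired analysis was possible because the libraries form 1 group. Of 7 summary values recomputed under 11 alternatives, each that moved beyond the 95% interval of the share or median, or by over 1.5 times for the count, is given here. With the shorter peak list of each library, 1023 genes lacked peaks in replicates 1 and 3, of which 56.0% had a replicate 2 peak and 32.7% were on the 7 lists. With equal numbers of the strongest peaks, 12.2% of the genes lacking peaks and 93.8% of the other genes had a replicate 2 peak. Windows of 500 bp gave 73.1% with a replicate 2 peak, a median of 92 CG and 34.2% on the lists, and windows of 2500 bp a median of 181 CG and a ratio of 0.671. The most upstream TSS alone gave 125 CG and 0.697. Choosing the set by the observed-to-expected ratio gave 140 CG, 0.741 and 5.34% over 10% copied. The top 10% by CG count held 248 such genes, with 83.9% in replicate 2, 155 CG, 0.771, 1.61% copied and 44.8% on the lists. Without replicate 1 or 3 in turn, where values that did not move are given too, the genes lacking peaks numbered 782 to 868, with 82.4% to 83.3% in replicate 2 and 33.99% to 35.7% on the lists, and the other genes stood at 99.85% to 100%. Leaving out copied windows gives no value for the copied share. The cause of these moves was not tested, beyond what each alternative changes by construction. Of the 626 genes, 73.96% were also chosen with windows of 500 bp, 79.2% with 2500 bp, 91.1% with the most upstream TSS and 62.8% by the ratio; each setting also redraws the CpG-rich set.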
